A study of Mus musculus with 6 samples.

Results

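The insulin-like growth factor (IGF) genes described here are 2 ligands (Igf1, Igf2), 2 receptors (Igf1r, Igf2r) and 6 binding proteins (Igfbp2, Igfbp3, Igfbp4, Igfbp5, Igfbp6 and Igfbp7), chosen by gene symbol. All 10 were among the 31055 genes of the count matrix. The data are 10x Genomics Chromium single-cell RNA libraries of EGFP-positive, non-myocyte cells sorted from collagenase-digested hearts of C57BL/6 mice aged 3 to 6 months. The control group, Wt1CreERT2:Rosa26mTmG, has 3 libraries. The other group, Wt1CreERT2:Rosa26mTmG:DspW/F and called Dsp_het here, also has 3. All mice carried a Cre that the Wt1 promoter drives and that acts once its hormone-binding domain is engaged, together with a reporter that turns from membrane Tomato to membrane GFP where Cre has acted and in the descendants of such cells. The Dsp_het mice also carried 1 conditional allele of Dsp, the gene of desmoplakin, a protein of the desmosome. Neither the induction schedule nor the number of animals behind a library is given in the sources used here, so p-values measure the spread between libraries, which may be technical.

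IGF ligands act through Igf1r, a tyrosine kinase receptor that signals to growth and survival, whereas Igf2r has no kinase and carries bound Igf2 to the lysosome for breakdown. Most ligand outside cells is held by IGF-binding proteins, which prolong its life, keep it from the receptor, or release it when proteases cut them. In the heart, fibroblasts and macrophages are known local sources of Igf1.

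Library totals ran from 7573157 to 17083660 UMIs (counted molecules), and 12643 cells were kept with library medians of 3489 to 6500 UMIs. Barcodes were shared between libraries, 1689 of 13183 by more than 1 library and 530 by all 6. Each shared barcode was counted once, in the library that held most of its UMIs, which removed 17.3% to 48.9% of a library's barcodes as copies. Xist RNA reached 504 CPM, the counts scaled to a common library total, in control 3 and 645 CPM in Dsp_het 2 and at most 0.145 CPM in the other libraries, so each group held 1 library with it. In epicardial-like cells Dsp measured 12.0, 20.9 and 17.5 CPM in control libraries 1, 2 and 3 and 7.30, 7.25 and 9.50 CPM in the Dsp_het libraries. Whether those reads lie in the deleted part is not known. Although the labels call all cells epicardial derived, endothelial markers defined 9694 cells in 10 clusters. Fibroblast-like cells numbered 1215 in 2 clusters, epicardial-like (mesothelial) cells 596, macrophage-like cells 218 and pericyte-like cells 206. The remaining cells were rich in cardiomyocyte RNA (156), cycling (60) or unnamed (498). None of the 10 IGF genes was used for clustering, but the clusters come from the same cells, so levels across clusters describe these cells. Pericyte-like cells carried endothelial marker sums of 4108 to 5880 CPM beside pericyte marker sums of 9373 to 12844 CPM, and the part of mixed droplets in their values was not tested.

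Igfbp4, Igfbp5 and Igfbp6, the binding proteins with the largest differences between the genotypes over all cells, are shown with the 250 bases before their RefSeq start sites (GRCm38.p6). Igfbp4 (chr11:99040994-99041243, plus strand), Igfbp5 (chr1:72874866-72875115, minus strand) and Igfbp6 (chr15:102143936-102144185, plus strand) are written 5′ to 3′ along the gene. Capitals mark a match to one of 4 motifs searched on both strands, namely the TATA box TATAAA, the GC box GGGCGG, the TEAD core GGAATG and the E-box CACGTG.
Igfbp4: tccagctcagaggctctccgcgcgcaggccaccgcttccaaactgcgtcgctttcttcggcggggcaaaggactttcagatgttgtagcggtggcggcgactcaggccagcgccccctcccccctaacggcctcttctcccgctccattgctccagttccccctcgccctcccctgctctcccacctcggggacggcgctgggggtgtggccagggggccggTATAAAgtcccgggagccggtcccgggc
Igfbp5: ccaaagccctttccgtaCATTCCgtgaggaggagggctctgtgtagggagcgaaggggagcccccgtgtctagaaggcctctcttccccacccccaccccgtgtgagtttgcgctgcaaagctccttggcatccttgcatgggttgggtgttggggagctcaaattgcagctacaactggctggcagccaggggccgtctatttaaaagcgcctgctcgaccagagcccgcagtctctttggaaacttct
Igfbp6: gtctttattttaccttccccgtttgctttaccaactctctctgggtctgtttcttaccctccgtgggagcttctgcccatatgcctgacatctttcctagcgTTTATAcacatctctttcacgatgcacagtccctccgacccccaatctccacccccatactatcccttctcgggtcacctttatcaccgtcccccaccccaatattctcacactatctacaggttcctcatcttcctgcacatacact
Igfbp4 holds 1 TATAAA, Igfbp6 holds 1 on the opposite strand (TTTATA), and Igfbp5 holds 1 GGAATG on the opposite strand (CATTCC). No motif of the 4 was found in more than 1 of these sequences apart from TATAAA, and none holds GGGCGG or CACGTG. Among 32851 promoters of the same length, TATAAA occurs in 12.4%, GGAATG in 12.6%, GGGCGG in 32.7% and CACGTG in 6.02%. The GC content of the sequences is 69.2% for Igfbp4, 58.8% for Igfbp5 and 49.6% for Igfbp6, beside a median of 52.4% over all promoters.

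By GENCODE gene models on GRCm38, Igf1 lies at chr10:87858265-87937042 and Igf2 at chr7:142650766-142666816. Igf1r lies at chr7:67952827-68233668 and Igf2r at chr17:12682406-12769664. Igfbp2 (chr1:72824503-72852474) and Igfbp5 (chr1:72857932-72874884) are neighbours transcribed toward each other. The other binding proteins are at chr11:7206086-7213923 (Igfbp3), chr11:99041244-99054392 (Igfbp4), chr15:102144362-102149511 (Igfbp6) and chr5:77349240-77408041 (Igfbp7). Igf2r overlaps the antisense RNA Airn, which held 2572 UMIs, and the end of Igfbp7 overlaps Polr2b on the opposite strand, which held 2114. Whether counting used the strand is not given, so reads of such pairs may not be told apart.

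Each level below is the CPM of the summed counts of 1 cell type in 1 library. These 3′ counts compare 1 gene across cell types and do not compare genes. Fibroblast-like cells had the highest mean level of 5 of the 10 genes, epicardial-like cells of 4, and pericyte-like cells of Igf2 alone.

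**Figure D1:**
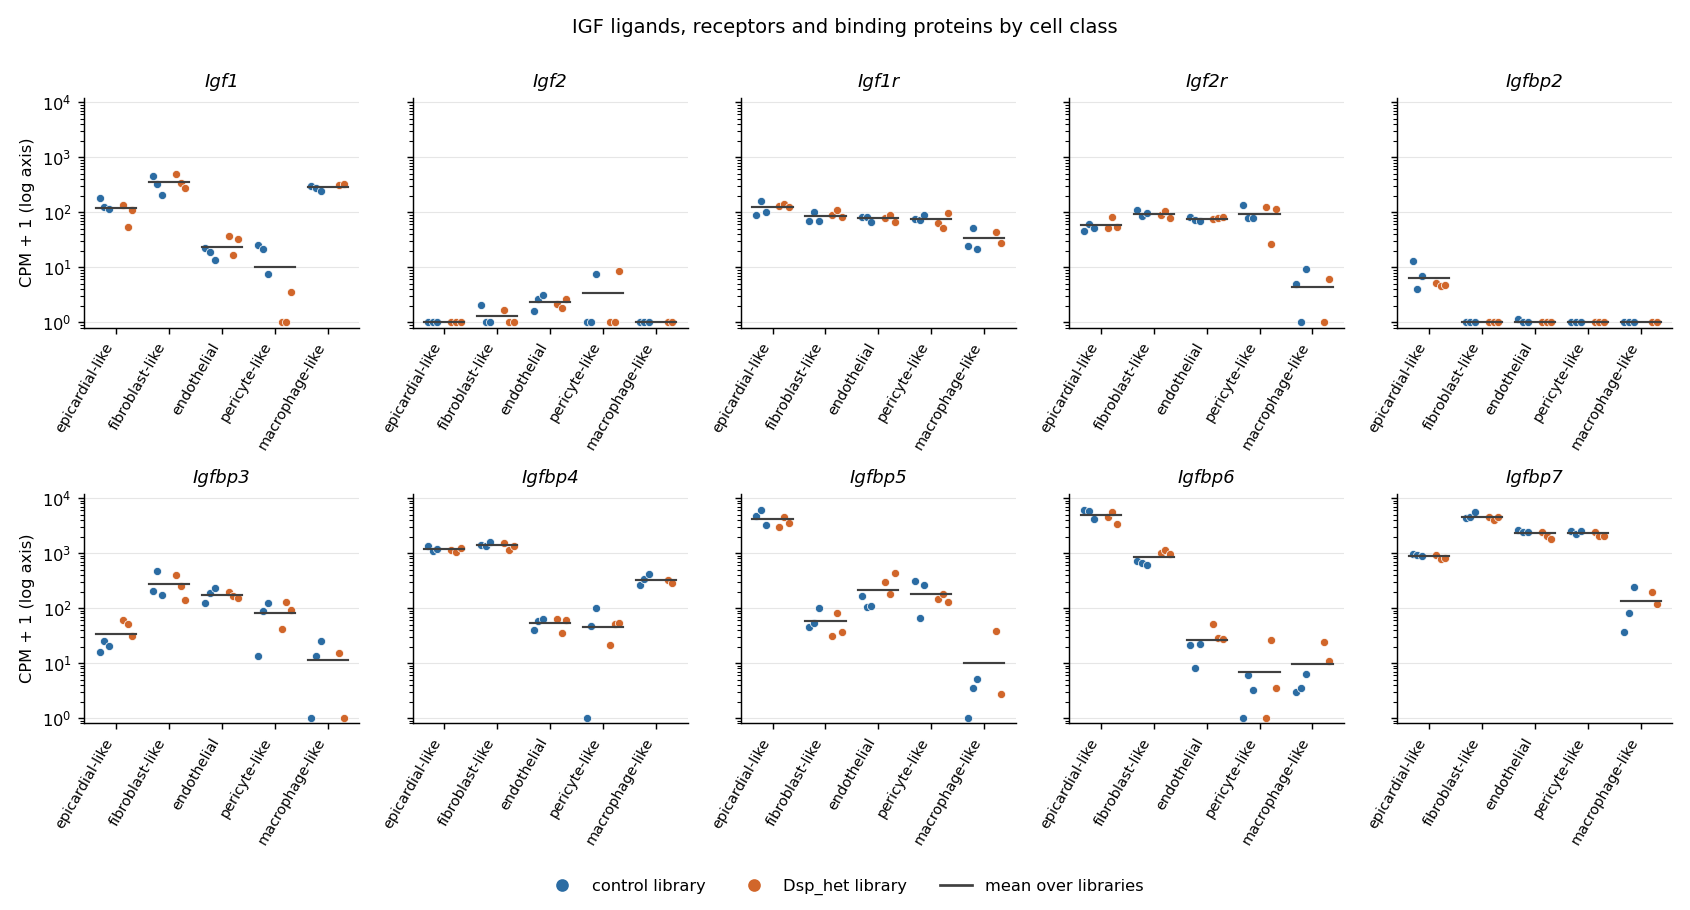
Levels of the 10 IGF genes in 5 cell classes, as CPM of the summed counts plus 1 on a log axis, with 1 point per library, colours for control and Dsp_het, and lines at the mean over libraries. Igfbp5 and Igfbp6 are highest in epicardial-like cells in every library, while Igf1r and Igf2r differ little between endothelial, fibroblast-like and pericyte-like cells.

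Igf1, the ligand made under growth hormone control, measured 454, 329 and 206 CPM in fibroblast-like cells of the control libraries and 490, 343 and 272 CPM in those of Dsp_het. In macrophage-like cells it measured 301, 274 and 240 CPM in the controls and 308 and 319 CPM in Dsp_het 2 and 3, while Dsp_het 1 held too few such cells. The classes overlapped, and fibroblast-like cells exceeded macrophage-like cells in 3 of 5 libraries (log2 difference 0.11 ± 0.35, SD, n = 5, exact sign-flip p = 0.562). Epicardial-like cells followed with 119 ± 40.8 CPM (SD, n = 6), above endothelial cells (22.5 ± 9.15 CPM) in 6 of 6 libraries by 2.35 on the log2 scale. Fibroblast-like cells gave 62.4% of all Igf1 UMIs, endothelial cells 14.3%, and epicardial-like and macrophage-like cells 11.3% each. A UMI of Igf1 was found in 78.4% of fibroblast-like cells (95% Clopper-Pearson interval 76.0% to 80.7%, counting error only) and in 4.85% of pericyte-like cells (2.35% to 8.75%), at median depths of 7588 and 4581.5 UMIs. With each cell thinned to 1000 UMIs these shares were 30.02% and 1.21%.

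Igf2, a fetal growth factor expressed from the paternal copy, was nearly absent, with 71 UMIs in all cells. Endothelial cells held 55 of them. The highest mean, in pericyte-like cells, rests on 9 UMIs in control 3 and Dsp_het 3, and pericyte-like cells exceeded endothelial cells in 2 of 6 libraries (log2 difference -0.18, exact two-sided sign-flip p = 0.75). In the endocardial-like cluster it measured 0, 16.4 and 39.1 CPM in the controls and 8.42, 0 and 8.14 CPM in Dsp_het, from 18 UMIs. It was not detected in 596 epicardial-like cells, which allows up to 0.503% of cells with a UMI when 3 counts of the total are taken as the limit of a 0, nor in 218 macrophage-like cells, which allows up to 1.38%.

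Igf1r measured 123 ± 24.7 CPM (SD, n = 6) in epicardial-like cells and 85.6 ± 16.3 CPM in fibroblast-like cells. The former were higher in 6 of 6 libraries, by 0.52 on the log2 scale, although the ranges of libraries overlapped. Endothelial cells (76.0 ± 9.14 CPM) and pericyte-like cells (74.1 ± 17.4 CPM) did not differ beyond their spread (exact p = 0.781). Macrophage-like cells were lowest, at 32.6 ± 12.8 CPM over 5 libraries, below pericyte-like cells in all 5.

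Igf2r measured 93.4 ± 13.3 CPM in fibroblast-like, 91.9 ± 40.6 CPM in pericyte-like and 75.9 ± 5.61 CPM in endothelial cells. Neither step in that order exceeded the spread between libraries (exact sign-flip p = 0.844 for each). Fibroblast-like cells were not tested against endothelial cells directly. They were higher in every library but Dsp_het 3 (76.9 against 81.0 CPM). Epicardial-like cells held 56.7 ± 12.8 CPM. Macrophage-like cells held 3.93, 0 and 8.10 CPM in the controls and 0 and 5.06 CPM in Dsp_het 2 and 3, below epicardial-like cells in 5 of 5 libraries by 4.23 on the log2 scale. Macrophage-like cells were thus the class with least of both receptors while being among the 2 classes with most Igf1.

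Igfbp6, a binding protein with a preference for Igf2, was highest in epicardial-like cells. It measured 5978, 5835 and 4254 CPM in epicardial-like cells of the controls and 4471, 5646 and 3328 CPM in those of Dsp_het. Every library exceeded its own fibroblast-like cells (855 ± 216 CPM, SD, n = 6), by 2.53 ± 0.54 on the log2 scale. Fibroblast-like cells in turn exceeded endothelial cells (25.5 ± 14.1 CPM) by 5.17 ± 0.68 in 6 of 6 libraries. No library of one class reached the range of the next in these 3. A UMI was found in 98.2% of epicardial-like cells (interval 96.7% to 99.1%) and 3.61% of endothelial cells (3.25% to 4.00%), and in 87.4% and 1.12% after thinning. Epicardial-like cells, 596 of the 12643, gave 72.8% of all Igfbp6 UMIs.

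Igfbp5, a binding protein that also attaches to extracellular matrix, measured 4671, 5972 and 3223 CPM in epicardial-like cells of the controls and 2927, 4555 and 3511 CPM in those of Dsp_het. Endothelial cells held 215 ± 128 CPM, and each library's epicardial-like cells exceeded them, by 4.42 ± 1.07 on the log2 scale. Unlike Igfbp6, Igfbp5 was low in fibroblast-like cells (56.7 ± 27.2 CPM), which lay below pericyte-like cells (181 ± 89.8 CPM) in 6 of 6 libraries. Epicardial-like cells gave 70.7% of its UMIs and endothelial cells 26.4%.

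Igfbp2, the neighbour of Igfbp5, had 29 UMIs in all, 28 of them in epicardial-like cells. These came to 12.0, 2.98 and 5.82 CPM in the controls and 4.17, 3.63 and 3.80 CPM in Dsp_het, so each library held some. No UMI was found in 1215 fibroblast-like cells, which allows up to 0.247% of cells by the same limit of 3 counts.

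Igfbp4, which is cut by the protease encoded by Pappa, was shared by fibroblast-like (1392 ± 149 CPM) and epicardial-like cells (1188 ± 103 CPM). The former were higher in 6 of 6 libraries, but only by 0.23 on the log2 scale and with overlapping ranges. Macrophage-like cells held 267, 334 and 413 CPM in the controls and 317 and 285 CPM in Dsp_het 2 and 3, which was 1.90 below epicardial-like cells and 2.69 above endothelial cells (52.0 ± 12.4 CPM) on the log2 scale, with separate ranges.

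Igfbp7, a low-affinity binder of IGFs known in vessel walls, was detected in every class. Fibroblast-like cells measured 4307, 4480 and 5680 CPM in the controls and 4580, 4018 and 4472 CPM in Dsp_het. Endothelial (2294 ± 303 CPM) and pericyte-like cells (2280 ± 233 CPM) had nearly the same level (log2 difference 0.00 ± 0.10, exact p = 0.844), below fibroblast-like cells in 6 of 6 libraries. Epicardial-like cells followed at 881 ± 63.7 CPM and macrophage-like cells at 136 ± 86.0 CPM. By number of cells, endothelial cells gave 61.6% of all Igfbp7 UMIs and fibroblast-like cells 29.3%.

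Igfbp3, the main carrier of IGFs in blood, had its highest class level in fibroblast-like cells (273 ± 132 CPM) without exceeding endothelial cells (175 ± 36.7 CPM) beyond the spread (higher in 4 of 6 libraries, exact p = 0.125). Fibroblast-like cells fell into 2 clusters for this gene. The larger, led by Gsn and Lum (1146 cells), held 155 ± 72.0 CPM. The smaller, led by Ccl11 and Igfbp3 (69 cells), held 2749 CPM in Dsp_het 1, the only library with at least 8 of its cells (58). That cluster gave 15.5% of all Igfbp3 UMIs. In the same library it held 971 CPM of Igf1, against 435 CPM in the larger cluster.

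Of 35 neighbouring pairs of classes in these orders, 19 had the same order in every library and 13 had ranges that did not overlap. The exact two-sided sign-flip test over libraries cannot go below 0.03125 with 6 libraries or 0.0625 with 5. Its exact p was 0.03125 in 11 pairs, and none stayed under 0.05 after Benjamini-Hochberg adjustment over the 35 (lowest adjusted p 0.0994). With these floors, most of the 35 pairs would have to reach 0.03125 for any to pass. The adjusted values therefore say little about single pairs.

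Within the endothelium, Igfbp5 and Igf1 stood out in the venous-like cluster and Igfbp4, Igfbp5 and Igfbp6 in the endocardial-like cluster. The venous-like cluster (512 cells) was led by Ccl21a, Serpina1b and Vwf. It held 927 CPM of Vwf and 283 CPM of Nr2f2, a regulator of vein identity, with lymphatic markers at 65.1 CPM for Lyve1 and 9.62 CPM for Prox1. The endocardial-like cluster (132 cells) was led by Cytl1, Plvap and Vwf and held 825 CPM of Npr3, an endocardial marker, and 218 CPM of Lyve1.

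**Figure D2:**
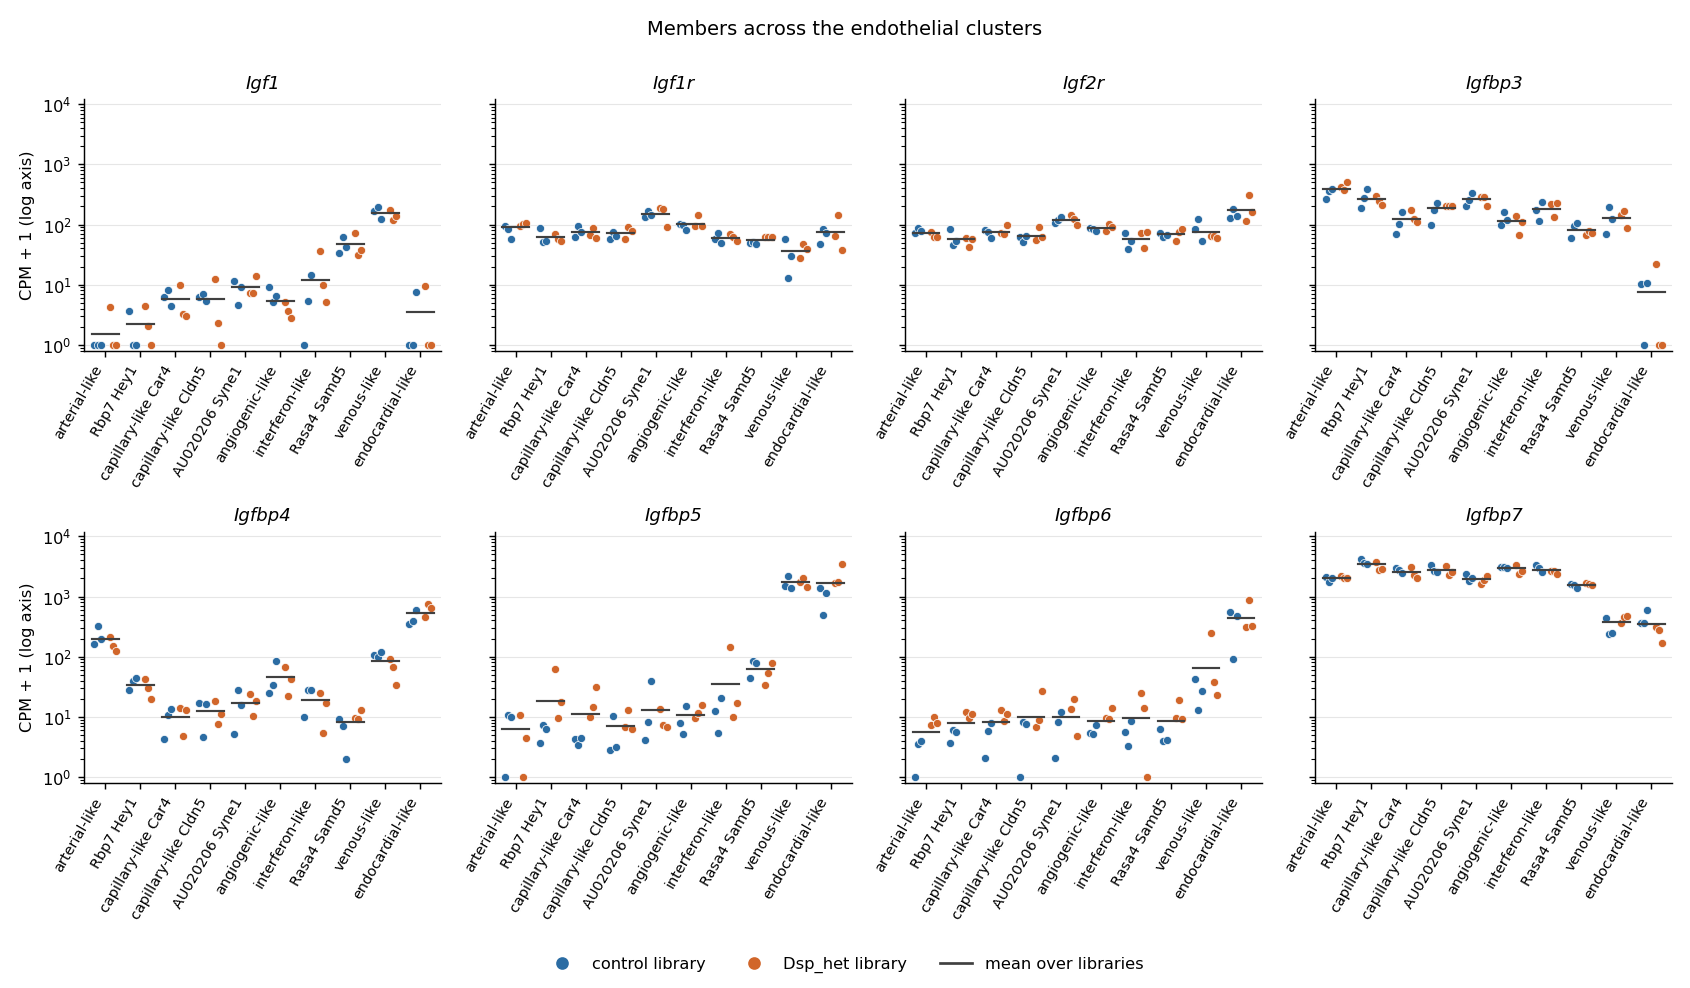
Levels of 8 IGF genes in the 10 endothelial clusters, as CPM of the summed counts plus 1 on a log axis, with 1 point per library, colours for the genotypes and lines at the mean. Igfbp5 is at 493 CPM or more in every library of the venous-like and endocardial-like clusters and at most 142 CPM in the others, while Igfbp7 is lowest in those 2 clusters.

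Igfbp5 measured 1493, 2197 and 1390 CPM in venous-like cells of the controls and 1744, 2023 and 1432 CPM in those of Dsp_het. Endocardial-like cells varied more, with 1391, 493 and 1162 CPM in the controls and 1706, 1727 and 3459 CPM in Dsp_het. Neither of these clusters exceeded the other beyond the spread (exact p = 0.531). The next cluster, led by Rasa4 and Samd5, held 60.1 ± 20.7 CPM (SD, n = 6), below endocardial-like cells in 6 of 6 libraries by 4.61 on the log2 scale. A UMI was found in 54.3% of venous-like cells (interval 49.9% to 58.7%) and 68.9% of endocardial-like cells (60.3% to 76.7%), and in 2.07% of arterial-like cells (1.11% to 3.52%). Thinned shares were 38.5%, 44.5% and 0.478%.

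Igf1 in venous-like cells measured 166, 194 and 123 CPM in the controls and 171, 118 and 139 CPM in Dsp_het, and the genotypes overlapped. The Rasa4 and Samd5 cluster followed with 45.5 ± 16.5 CPM, lower in 6 of 6 libraries, with a log2 difference of 1.76. That difference was -0.48 when cells with the highest doublet scores were left out and the rest clustered again. All other endothelial clusters had means of at most 11.0 CPM. Venous-like cells (152 ± 29.8 CPM) were thus the endothelial cluster with most of this ligand.

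Igfbp6 reached 433 ± 264 CPM in endocardial-like cells and 64.4 ± 90.2 CPM in venous-like cells, and at most 9.06 CPM on average in the other 8 clusters. In venous-like cells 1 library, Dsp_het 1 at 247 CPM, stood apart from the others, which ran from 12.1 to 41.9 CPM. Igfbp4 was highest in endocardial-like cells (532 ± 154 CPM), then arterial-like cells (193 ± 70.6 CPM) and venous-like cells (85.1 ± 30.9 CPM). Those steps of 1.47 and 1.21 on the log2 scale held in 6 of 6 libraries with separate ranges.

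Igfbp3 was highest in arterial-like cells. They measured 269, 359 and 391 CPM in the controls and 425, 378 and 503 CPM in Dsp_het, above the cluster led by Rbp7 and Hey1 (265 ± 71.5 CPM) in 6 of 6 libraries by 0.56 on the log2 scale. Endocardial-like cells were at the other end with 6.67 ± 8.44 CPM from 10 UMIs, below the next cluster in 6 of 6 libraries with separate ranges. Igfbp7 was highest in the Rbp7 and Hey1 cluster (3419 ± 523 CPM) and spanned 1560 to 2924 CPM on average in 7 others. It dropped to 371 ± 108 CPM in venous-like and 347 ± 140 CPM in endocardial-like cells, a step of 2.12 on the log2 scale in 6 of 6 libraries.

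The receptors varied less. Igf1r ran from 34.7 ± 15.6 CPM in venous-like cells to 150 ± 35.9 CPM in the cluster led by AU020206 and Syne1. That cluster had the lowest median depth, 2104 UMIs per cell against 3622 to 9221.5 in the other endothelial clusters. The part of depth in its level was not tested. Igf2r ran from 56.2 ± 14.9 CPM in the Rbp7 and Hey1 cluster to 172 ± 71.1 CPM in endocardial-like cells. Over all members, 75 neighbouring pairs of endothelial clusters were compared. In 14 the order was the same in every library and the exact p was 0.03125, none stayed under 0.05 after adjustment (lowest adjusted p 0.167), and 6 had separate ranges. As for the classes, most pairs would have to reach the smallest possible p for any to pass.

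By genotype, Igfbp5 and Igfbp6 were higher in every Dsp_het library than in every control library when all cells were summed, but with edgeR no member passed the threshold across all genes. Igfbp6 measured 273, 351 and 382 TMM-normalized CPM in the controls and 1037, 684 and 721 in Dsp_het (log2 fold change 1.28, SE 0.20, edgeR quasi-likelihood test, adjusted p = 0.131). Igfbp5 measured 279, 369 and 334 in the controls and 599, 570 and 856 in Dsp_het (1.04, SE 0.19, edgeR adjusted p = 0.131). The groups did not overlap for either gene. Igfbp4 measured 217, 250 and 318 in the controls and 728, 269 and 437 in Dsp_het, with Dsp_het 2 inside the control range (0.87, SE 0.34, edgeR adjusted p = 0.352).

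With edgeR, 0 of 9 testable members passed an adjusted p of 0.05 over all cells, as did 0% of the 12969 genes tested, while 3 members had an unadjusted p under 0.05. Here and below, the share of all genes with an unadjusted p under 0.05 is not given. Counts at that level therefore do not set the IGF genes apart from other genes. DESeq2 called 2 members, Igfbp6 (adjusted p = 2.26e-07) and Igfbp5 (1.10e-05), among 382 genes. The edgeR adjusted p of Igfbp6 was 0.0457 without Dsp_het 2 and 0.0342 with no filter on low counts, and that of Igfbp5 was 0.0484 with no such filter. Of the 9 members, 7 were higher in Dsp_het and 2 lower, with a median log2 fold change of 0.18, beside 47.7% of all genes higher and a median of -0.01. Igfbp2, at 29 UMIs, was not testable. The receptors moved little, with log2 fold changes of 0.18 (SE 0.12) for Igf1r and 0.06 (SE 0.11) for Igf2r.

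The share of epicardial-like cells differed between the same libraries. They made up 1.93%, 2.97% and 3.26% of cells in the controls and 8.06%, 4.40% and 8.80% in Dsp_het, and 3.27%, 4.88% and 6.76% against 14.3%, 9.40% and 18.0% of UMIs (exact permutation p = 0.1 for each, the smallest that 3 against 3 allows). Fibroblast-like cells gave 9.65%, 9.80% and 9.49% of UMIs in the controls and 33.8%, 11.7% and 12.8% in Dsp_het. In sums over all cells, more cells of a type and more RNA per cell cannot be told apart.

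To set composition and level side by side, the level of each member was recomputed in 2 ways, with the cell classes as types. With each library's own mix of types and every type at its mean control level, Igfbp6 gave a Dsp_het to control ratio of 2.58, close to the measured 2.44. With the mean mix and each library's own levels, the ratio was 0.981, and the libraries ran 685, 651 and 505 CPM in the controls and 609, 719 and 479 CPM in Dsp_het. For Igfbp5 these ratios were 2.20 and 1.05 beside a measured 2.08, and for Igfbp4 1.91 and 0.930 beside 1.84. Igf1, with a measured ratio of 1.81, gave 1.54 and 1.06. That measured ratio rests on Dsp_het 1, since the log2 fold change of Igf1 over all cells was 0.88 as fitted and 0.23 without that library. At the mean mix, the ratios of these 4 genes thus lay between 0.930 and 1.06, with overlapping groups. Igfbp7 differed in the opposite way, with a ratio of 0.856 at the mean mix. The 3 Dsp_het libraries (2449, 2083 and 2043 CPM) all lay below the controls (2568, 2464 and 2650 CPM). These Igfbp7 values still carry the mix of clusters within each class, which is held for endothelial cells below.

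**Figure D3:**
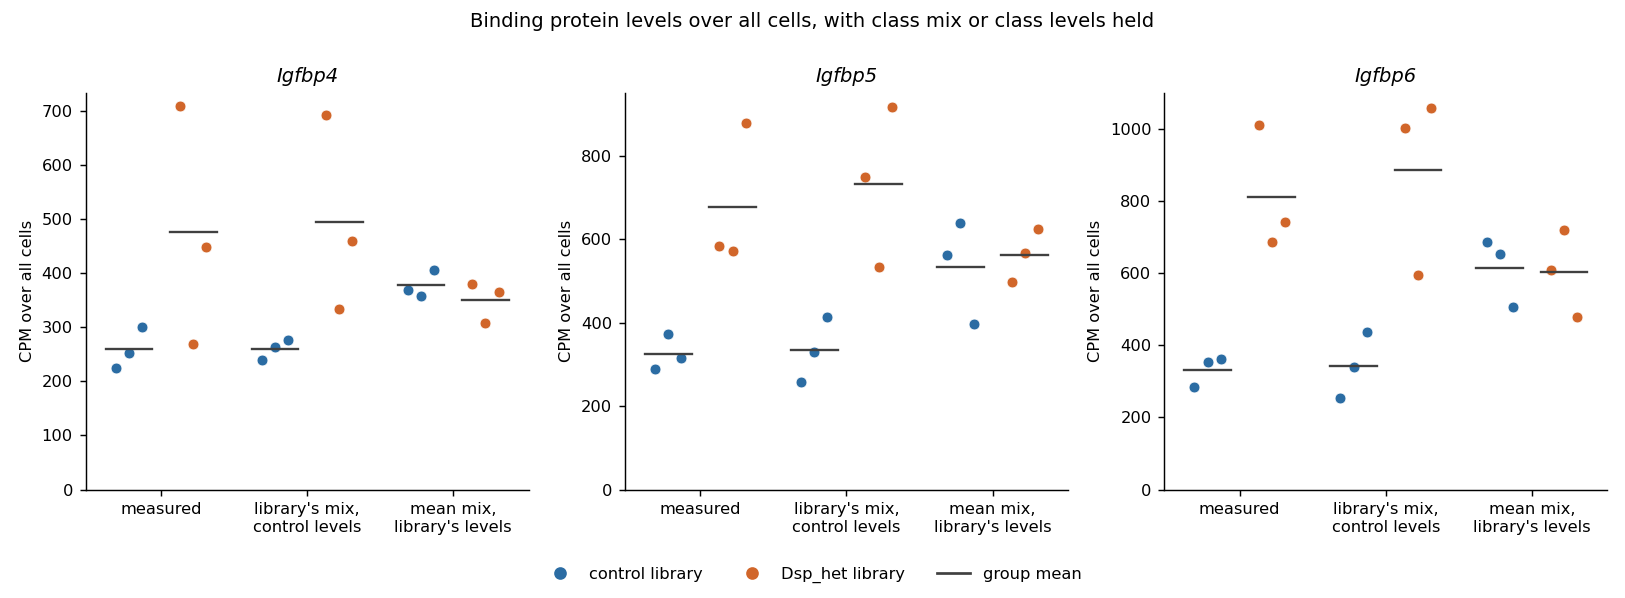
CPM over all cells of Igfbp4, Igfbp5 and Igfbp6, with 1 point per library and lines at group means, as measured, with the library's own mix of types at control levels, and with the mean mix at the library's own levels. The genotypes of Igfbp5 and Igfbp6 do not overlap in the first and second quantity and overlap in the last.

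Within epicardial-like cells 0 of 8 testable members passed with edgeR (0% of 8286 genes did), and 1 had an unadjusted p under 0.05. Igfbp5 measured 4754, 5936 and 3305 normalized CPM in the controls and 3024, 4728 and 3610 in Dsp_het (log2 fold change -0.30, SE 0.21), and Igfbp6 gave -0.22 (SE 0.19). Both groups overlapped for these genes. Igfbp3 measured 15.3, 23.7 and 19.9 in the controls and 60.8, 51.4 and 31.2 in Dsp_het, with no overlap (1.27, SE 0.33, edgeR adjusted p = 1). Sums of endothelial markers in these cells were 651, 611 and 820 CPM in the controls and 631, 731 and 515 CPM in Dsp_het. Sums of fibroblast markers were 10655, 11389 and 9468 CPM in the controls and 9793, 8945 and 11771 CPM in Dsp_het. The groups overlapped for both sums, and the part of RNA from other cells in the Igfbp3 values was not tested.

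Within fibroblast-like cells 0 of 8 members passed (0.0118% of genes did), and again 1 had an unadjusted p under 0.05. This was Igfbp6, at 730, 686 and 631 normalized CPM in the controls and 1060, 1149 and 967 in Dsp_het. All Dsp_het libraries lay above all controls (0.63, SE 0.14, edgeR adjusted p = 0.799). Epicardial marker sums in the same cells were 1354, 1665 and 869 CPM in the controls and 1750, 1498 and 1344 CPM in Dsp_het, and these overlapped. Without the Ccl11 and Igfbp3 cluster, in the Gsn and Lum cells alone, the log2 fold change was 0.67 and again 0 of 8 members passed (0.012% of genes did). Over all fibroblast-like cells, with both clusters, Igf1, Igfbp4 and Igfbp7 had log2 fold changes of 0.18 (SE 0.27), -0.13 (SE 0.15) and -0.16 (SE 0.15).

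Within endothelial cells 0 of 9 members passed (0% of 11307 genes did), and 3 had an unadjusted p under 0.05. Igfbp5 measured 158, 101 and 116 normalized CPM in the controls and 301, 184 and 427 in Dsp_het, without overlap (1.28, SE 0.26, edgeR adjusted p = 0.347). Igfbp6 measured 19.9, 6.98 and 22.0 in the controls and 50.3, 27.5 and 26.7 in Dsp_het (1.05, SE 0.33, edgeR adjusted p = 0.789). Igf1 measured 21.1, 17.4 and 13.5 in the controls and 36.1, 16.03 and 30.7 in Dsp_het, with Dsp_het 2 among the controls (0.68, SE 0.26, edgeR adjusted p = 1). Without Dsp_het 2 the edgeR adjusted p of Igfbp5 was 0.00786, and 11 genes in all then passed.

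Venous-like cells, the main endothelial source of Igfbp5, gave 7.79%, 3.35% and 4.20% of endothelial UMIs in the controls and 12.1%, 6.76% and 16.1% in Dsp_het (exact permutation p = 0.2). With the library's own mix of endothelial clusters at control levels, the ratio for Igfbp5 was 1.93 beside a measured 2.44. At the mean mix it was 1.26, with 177, 216 and 172 CPM in the controls and 227, 237 and 249 CPM in Dsp_het. For Igf1 the 2 ratios were 1.68 and 0.953 beside 1.59. For Igfbp6 they were 1.25 and 1.92 beside 2.15. For Igfbp7 they were 0.899 and 0.915 beside 0.837. At the mean mix of clusters Igfbp7 measured 2627, 2317 and 2228 CPM in the controls and 2478, 2019 and 2066 CPM in Dsp_het, with overlap.

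Leaving out venous-like and endocardial-like cells, Igfbp6 came to 2.80, 4.74 and 5.90 CPM in the controls and 11.1, 11.5 and 9.04 CPM in Dsp_het. The sum of the epicardial markers moved with it in the same cells, from 41.5, 45.9 and 36.8 CPM to 64.1, 51.4 and 68.1 CPM, with 9 or 10 of the 11 markers detected in the controls and all 11 in Dsp_het. Upk3b, a mesothelial marker, went from 0.561, 1.08 and 1.61 CPM to 3.51, 4.28 and 4.79 CPM. The sum of the fibroblast markers in these cells was 49.2, 68.9 and 71.1 CPM in the controls and 144, 74.3 and 114 CPM in Dsp_het, also with no overlap. The part of epicardial and fibroblast RNA in the endothelial Igfbp6 values was not tested.

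**Figure D4:**
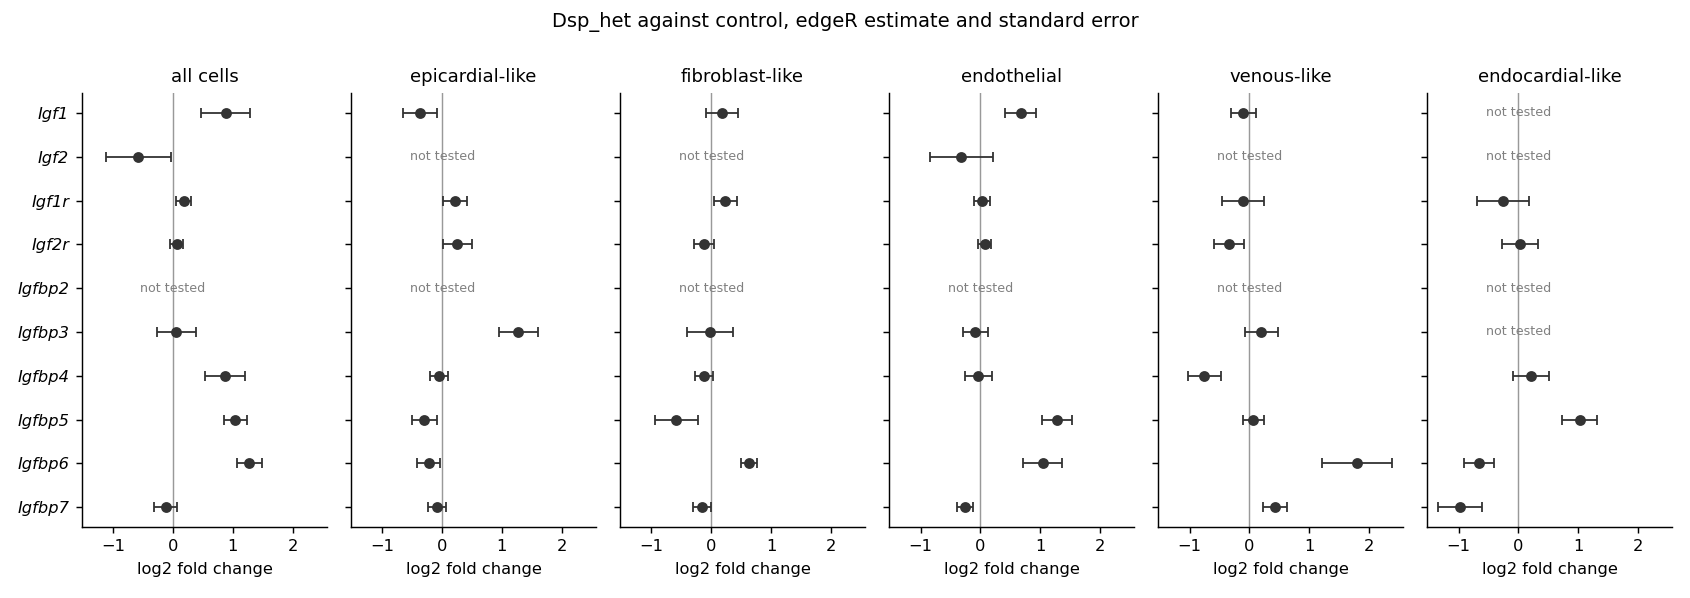
Log2 fold changes between Dsp_het and control for each testable IGF gene over all cells and in 5 cell types, as points with bars of 1 standard error from edgeR. Igfbp5 and Igfbp6 lie above 0 over all cells and in endothelial cells and below 0 in epicardial-like cells, and no point passed an adjusted p of 0.05.

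In the 10 endothelial clusters 54 member tests were made with edgeR, 28 with a higher and 26 with a lower estimate in Dsp_het. None passed and 7 had an unadjusted p under 0.05. The share of all genes called was 0.0641% in venous-like cells, 0% in endocardial-like and arterial-like cells, 0.0125% in the Rbp7 and Hey1 cluster, 0.0129% in the Rasa4 and Samd5 cluster, 0.0133% in angiogenic-like cells, 0.0292% in the capillary-like cluster led by Cldn5, and 0% in the other 3. In venous-like cells Igfbp5 itself was level between the genotypes (0.06, SE 0.17). Igfbp4 there measured 109, 98.0 and 127 normalized CPM in the controls and 97.9, 70.2 and 33.5 in Dsp_het, with Dsp_het 1 just under control 2 and the others lower (-0.75, SE 0.28, edgeR adjusted p = 1). This difference was -0.12 without the highest doublet scores, -0.39 without Dsp_het 3 and -1.24 without Dsp_het 1. Igfbp6 in venous-like cells rested on Dsp_het 1 at 266 normalized CPM (1.80, SE 0.59, and -0.19 without that library). Its edgeR adjusted p was 1 as fitted, 0.0143 without Dsp_het 2, 0.0278 without Dsp_het 3 and 0.0160 with the replicate number as a block. Epicardial marker sums in these cells were 33.8, 36.3 and 23.7 CPM in the controls and 54.1, 67.3 and 60.9 CPM in Dsp_het, highest in a library other than Dsp_het 1, and their part in the value was not tested.

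Endocardial-like cells could be tested with 2 libraries a group, since control 2 and Dsp_het 2 held under 20 such cells. Igfbp5 measured 1530 and 1303 normalized CPM in the controls and 1966 and 3787 in Dsp_het (1.02, SE 0.30, edgeR adjusted p = 0.916). Without Dsp_het 1, which leaves a lone library assumed to vary like the others, the log2 fold change was 1.40 and the edgeR adjusted p 3.32e-05. Without Dsp_het 3 they were 0.47 and 0.754, so the size of the difference rests on that library. Igfbp6 measured 598 and 522 in the controls and 359 and 348 in Dsp_het (-0.66, SE 0.25, edgeR adjusted p = 0.998), and Igfbp7 gave -0.98 (SE 0.36). None of 6 members passed. In macrophage-like cells, with 3 against 2 libraries, 0 of 4 members passed (0% of 6010 genes did) and 0 had an unadjusted p under 0.05. Igf1 there was 315, 296 and 258 normalized CPM in the controls and 313 and 318 in Dsp_het 2 and 3 (0.13, SE 0.19).

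Whether the genotype difference itself differed between classes was tested as an interaction, with library as a block. The difference in epicardial-like cells minus that in endothelial cells was -1.57 for Igfbp5 (SE 0.43), -1.27 for Igfbp6 (SE 0.34) and -1.10 for Igf1 (SE 0.30), each with an edgeR adjusted p of 0.694. The Igfbp5 difference in fibroblast-like minus endothelial cells was -1.93 (SE 0.52, edgeR adjusted p = 1). Between epicardial-like and fibroblast-like cells, Igfbp6 gave -0.85 (SE 0.31) and Igfbp3 gave 1.31 (SE 0.57). No member passed in any of the 3 interactions, in which 0%, 0.00895% and 0% of 11179 genes were called (fibroblast-like minus endothelial, epicardial-like minus endothelial and epicardial-like minus fibroblast-like).

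Other genes of the pathway were taken from 5 lists, and with edgeR none of their members passed over all cells or in endothelial, fibroblast-like or epicardial-like cells, where they were tested. Of 12 testable genes for IGFBP proteases, their inhibitors and surface partners, 11 were higher in Dsp_het over all cells and 1 lower (median log2 fold change 0.83), and 7 had an unadjusted p under 0.05. Within epicardial-like cells the same list had 2 higher and 6 lower (median -0.26), within fibroblast-like cells 5 higher and 4 lower (0.09), and within endothelial cells 9 higher and 1 lower (0.48). Of all genes tested in these classes, 50.2%, 50.1% and 50.3% were higher, in that order. Lrp1, a surface receptor reported to bind Igfbp3, measured 104 ± 11.3 normalized CPM in the controls and 207 ± 84.3 in Dsp_het over all cells (0.99, SE 0.27, edgeR adjusted p = 0.222). Lrp1 was highest in fibroblast-like cells (878 ± 139 CPM) and lowest in endothelial cells (1.91 ± 0.912 CPM). Epicardial-like, macrophage-like and pericyte-like cells held 199 ± 53.2, 171 ± 30.1 and 112 ± 56.5 CPM. Htra3, a secreted serine protease, gave 0.92 (SE 0.38, edgeR adjusted p = 0.379). Like Lrp1 it was near the floor in endothelial cells, at 2.09 ± 1.10 CPM against 799 ± 59.5 CPM in fibroblast-like cells. Not all genes of the list were so low in endothelial cells. The part of fibroblast RNA in the endothelial values of this list was not tested. Of the 19 genes of receptor signalling, 12 were higher and 7 lower over all cells (median 0.05), and 6 had an unadjusted p under 0.05. The share of all genes at that level is not given here, so such counts do not set any of the lists apart. Rheb was at -0.04 (SE 0.12).

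Over all cells, the growth hormone axis had 5 of 7 genes higher (median 0.28), imprinted growth genes 9 of 10 (0.41), and other ligands, receptors and carriers 1 of 3 testable (-0.07), beside 47.7% of all genes. An unadjusted p under 0.05 was found for 3, 4 and 1 of these genes. Within epicardial-like cells 1 imprinted growth gene was higher and 6 lower (median -0.13). Socs3, a feedback inhibitor of cytokine receptors, gave 0.72 (SE 0.27, edgeR adjusted p = 0.332), and its relative Socs2 gave 0.00 (SE 0.15). Insr, the insulin receptor, measured 21.1 ± 2.55 normalized CPM in the controls and 29.3 ± 3.93 in Dsp_het (0.48, SE 0.15, edgeR adjusted p = 0.255). Cdkn1c, an imprinted inhibitor of the cell cycle, gave 0.10 (SE 0.17) and Grb10, an adaptor that dampens Igf1r signalling, 0.19 (SE 0.15).

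Genes with the most similar pattern across 11 cell types were ranked by Pearson correlation of levels, which is a description over types that share libraries. Igfbp6 was most like Timp1 (r = 0.974), Sec61g and Ptgis. Igfbp5 was most like Cpe (0.954), Slco2a1 and Megf6, and Igfbp7 most like Sparc (0.945), St5 and Runx1t1. Igfbp4 was nearest to Sp3os (0.940), Stt3b and Timp2, and Igfbp3 to Rraga (0.918), Mrpl27 and Emc3. For Igf1 the genes were Ifi27l2a (0.884), Emilin2 and Tiparp, and for Igf1r they were Ube2h (0.873), Dnajc1 and Prnp. Igf2 was nearest to Bmx (0.925), Hdac1 and Smad6. Igf2r was nearest to Airn (0.975), its overlapping antisense RNA, so shared reads may enter that value, which was not tested, and next to Emc7 and Hdgfl3. Igfbp2, with 29 UMIs, was nearest to Gng13 (0.999), Dmkn and Ckmt1.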

How the data were processed

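The deposited matrix holds raw UMI counts per gene and barcode. Per the submitters' processing notes, the GRCm38 genome and Seurat were used, and no source used here gives the aligner, the counting program or its strand setting. Each barcode's suffix was matched to the sample number in the labels. The column sums equalled the deposited total counts for all 18283 barcodes. Barcodes were kept with at least 500 UMIs, 200 genes and at most 20% mitochondrial UMIs. Scrublet called only 35 doublets (0.214%), so doublet removal has not worked. A barcode found in several libraries was counted in the library holding at least 0.5 of its UMIs, and 5092 copies (27.9% of barcodes) were left out.

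Clusters came from 2000 variable genes without the 10 members, 30 principal components, 15 neighbours and Leiden resolution 1.0 (scanpy 1.11.5), with no integration. They were named from marker lists by a rule set after the clusters were seen. A class needed 3 markers among the 10 leading genes (ranked by CPM plus 20 against all other cells) or a marker score of 0.45, and an endothelial subtype a score of 0.8. Levels are CPM of summed counts in libraries with at least 8 cells of a type. Neighbouring types in an order were compared by exact two-sided sign-flip tests on log2(CPM + 1), adjusted over pairs.

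Genotypes were compared on counts summed per library and type (at least 20 cells) with edgeR 4.0.16 quasi-likelihood tests after TMM and filterByExpr with a minimum count of 10. The tests were two-sided, with Benjamini-Hochberg adjustment over all genes of a comparison and a threshold of 0.05. DESeq2 1.42.0 was the other tool. On simulated data with 2-fold changes, the edgeR step recovered 54% of changed genes over all cells (12856 genes), 93% in endothelial (11228), 68% in fibroblast-like (8213) and 55% in epicardial-like cells (8009). The simulation gave all genes the same spread, had no change of cell mix and planted no changes in the genes of lowest level. These shares are thus not the power of the tests on the measured counts. Values held at a fixed mix used each library's share of UMIs per class over all cells and per cluster within endothelial cells. The values over all cells thus still carry the mix of clusters within a class. No minimum number of cells applied to them, so 2 macrophage-like cells set the level of that class in Dsp_het 1. The text names all 10 members, for each the 3 genes of most similar pattern among those reaching 50 CPM, and the 2 genes of highest level of each pathway list, of which 1 is not reported here. Genes of these lists named for their levels under other observations were chosen after their values were seen. The members and lists were chosen with earlier results of these data known. Replicate numbers do not pair the libraries. Promoters are from RefSeq tables. Intervals cover counting error only.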

Additional observations from a re-analysis of the deposited data

How the results depend on the processing

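Across 59 results, 783 alternative values were computed, of which 730 kept their direction and side of the threshold. Of 381 alternative values for genotype differences 374 kept their direction, and of 124 for level differences 122 did. With no filter on low counts, 2 members passed over all cells (Igfbp5, Igfbp6), 3 in endothelial cells (Igf1, Igfbp5, Igfbp6), and 1 each in epicardial-like, fibroblast-like, Rbp7 Hey1, Car4 Timp4, interferon-response and venous-like cells (Igfbp3 in epicardial-like cells, Igfbp6 in fibroblast-like and venous-like cells), and 1, 4 and 2 in the interactions of fibroblast-like minus endothelial, epicardial-like minus endothelial and epicardial-like minus fibroblast-like cells. With no filter other genes passed too, and their numbers over all cells and in the largest classes are given below. The number of genes tested with no filter is not given, nor are the calls in the clusters and interactions. These calls are therefore not shown to be particular to the members. DESeq2 passed 2 over all cells. Leaving out the highest doublet scores, or using the replicate block, passed 1 in venous-like cells. Leaving out 1 library at a time gave 0 to 1 members over all cells, in endothelial, Rbp7 Hey1 (each without Dsp_het 2) and venous-like cells (without Dsp_het 2 or 3), and 0 to 2 in endocardial-like cells (without Dsp_het 1). It gave 0 in every other comparison.

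Direction changed for Igfbp3 over all cells (-0.16 without control 1 and a range of -0.32 without Dsp_het 1 to 0.30 without Dsp_het 3), Igfbp7 over all cells (from -0.37 without Dsp_het 1 to 0.014 without Dsp_het 3), Igfbp6 in venous-like cells (from -0.19 without Dsp_het 1 to 2.31 without Dsp_het 3), Igfbp7 in venous-like cells (-0.019 with a stricter cell filter, -0.72 without the highest doublet scores) and Igfbp6 in endocardial-like cells (0.12 with copies kept). Among levels, Igf1 in venous-like over Rasa4 Samd5 cells became -0.48 without the highest doublet scores, and Igfbp7 in Rbp7 Hey1 over angiogenic-like cells -0.092 with copies kept. The cause was not tested.

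Genes called over all cells numbered 0 as fitted, 5 with copies kept, 73 with no filter on low counts, 382 by DESeq2 and 170 without Dsp_het 2. In endothelial cells the numbers were 0 as fitted, 182 with no filter, 11 by DESeq2, 3 with the replicate block, 2 without control 2 and 11 without Dsp_het 2. In epicardial-like cells they were 0, then 34 with no filter, 3 with the block and 5 without Dsp_het 2, and in fibroblast-like cells 1, then 68, 3 with the block, and 0 without control 2, control 3 or Dsp_het 1.

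For libraries with the same replicate number, the deviations of log2 levels from their group means were correlated over the genes tested. These correlations lay between -0.12 and 0.10, so the numbers were not used to pair the libraries. The replicate block changed 1 member's call, Igfbp6 in venous-like cells (log2 fold change 1.77, edgeR adjusted p = 0.0160). Arterial-like and venous-like cells had no value with copies kept, nor venous-like and Cldn5 Timp4 cells at resolution 0.6, since no matching cluster was found. Leaving out the Ccl11 and Igfbp3 cluster, an alternative chosen after seeing the data, gave 0 members in fibroblast-like cells. Members of few counts, Igf2 (71 UMIs) and Igfbp2 (29), are limited by depth.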

Other observations

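Htra3, a secreted serine protease, measured 799 ± 59.5 CPM (SD, n = 6) in fibroblast-like cells and 34.5 ± 14.9 CPM in epicardial-like cells. Its relative Htra1 measured 246 ± 67.2 CPM in fibroblast-like and 302 ± 31.7 CPM in epicardial-like cells, with 21.3 ± 5.71 CPM in endothelial cells. Mmp2, a matrix metalloproteinase, measured 536 ± 73.7 CPM in fibroblast-like cells. Pappa, the protease of Igfbp4, held 15.01 ± 5.59 CPM in fibroblast-like and 14.3 ± 6.31 CPM in epicardial-like cells, the 2 classes highest in Igfbp4, from 253 UMIs in all. Its inhibitors were apart, with Stc2 at 42.4 ± 12.46 CPM in fibroblast-like cells. Stc1 held 30.6 ± 14.1 CPM in pericyte-like and 25.04 ± 11.5 CPM in endothelial cells. Stc2 held 1.55 ± 1.24 CPM in endothelial cells, and Stc1 held 1.75 ± 1.73 CPM in fibroblast-like cells. Vtn, which encodes vitronectin, measured 999 ± 160 CPM in pericyte-like cells and 3.08 CPM or less in the other 4 classes. Vtn is among the markers by which the pericyte-like class was named, so this contrast follows from the naming. Adam9, a membrane metalloproteinase, measured 40.0 ± 12.0 CPM in fibroblast-like, 38.8 ± 14.4 CPM in macrophage-like and 32.3 ± 20.7 CPM in pericyte-like cells.

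Cdkn1c reached 1055 ± 281 CPM in epicardial-like cells, where no Igf2 UMI was found, and 355 ± 75.6 CPM in endothelial cells. H19, the noncoding neighbour of Igf2, was among the leading genes of the endocardial-like cluster, and held 689 UMIs in all. These genes were named after their values were seen, and no test was made of them.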
